A study of Mus musculus with 10 samples.

Results

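The 10 genes described here carry the Reelin signal and the microtubule machinery of migrating neurons: the ligand Reln, its receptors Vldlr and Lrp8, the adaptor Dab1, the kinase Cdk5 with its activator Cdk5r1, the microtubule-associated proteins Dcx and Dclk1, and the dynein regulators Pafah1b1 and Ndel1. They were chosen by name, as the rows of the footprint count table whose Ensembl identifiers map to these symbols, and make up 10 of the 22373 genes in the table. All 10 passed the filter on low counts, which asks for at least 32 footprints summed over the 2 libraries of a stage. Ribosome profiling (Ribo-seq), which sequences the mRNA fragments that ribosomes protect from nuclease, was done on neocortex of timed pregnant wild-type CD-1 mice at E12.5, E14, E15.5 and E17 and of pups at P0, the day of birth, with 2 libraries per stage. No group carries a mutation or a drug treatment, so that stage is the only factor, and all lysates were digested with RNase T1 and RNase A. Brains of both sexes were pooled for every library, and replicates are such pools rather than single animals. Levels are given as CPM, the footprint counts of a gene per 1000000 counts of the TMM-scaled library size. A footprint level holds the amount of an mRNA and the number of ribosomes on it together.

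Reelin is a large secreted glycoprotein that Cajal-Retzius cells release near the surface of the embryonic cortex, and interneurons become a further source later. It binds the lipoprotein receptors VLDLR and ApoER2 (the product of Lrp8) on migrating neurons, and the bound receptors lead Src-family kinases to phosphorylate the adaptor Dab1. Loss of Reln, of Dab1 or of both receptors disturbs the layering of the cortex, and the microtubule proteins encoded by Dcx, Dclk1, Pafah1b1 (LIS1) and Ndel1, with the kinase Cdk5, act in the movement of the cell body and nucleus.

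The libraries held between 7544404 and 36129988 footprint counts, and the shallowest was P0 replicate 1. The 2 libraries of a stage differed with an SD of 0.54 (log2 ratio over 4559 genes) at P0 and of 0.13 to 0.22 at the other stages. Summed marker lists gave the cell types that the tissue held. Between E12.5 and P0 the range of the 2 libraries moved from 1603 to 1653 up to 5325 to 5417 CPM for cortical neurons (7 genes, of which Tubb3 and Map2 carry most of the sum), from 557 to 575 down to 103 to 127 for cortical progenitors (8 genes), and from 45.9 to 48.1 up to 161 to 191 for glia (8 genes). Of the cortical neuron genes 5 of 7 were called higher over this span and 0 lower, where 30.1% and 32% of all genes were. Tbr1 (means of 87.8 and 88.4) and Bcl11b (42.4 and 50.6) were not called. Red blood cell genes fell from 11208 to 11600 down to 1438 to 1861, and endothelial genes from 34.0 to 35.4 down to 6.08 to 9.89. Choroid plexus genes stood at 279 to 332 at E12.5 and 1124 to 1130 at E14, against 11.1 to 13.6 at E15.5 and 5.52 to 14.4 later, and meningeal fibroblast genes at 99.5 to 103 and 65.0 to 73.2 against 2.74 to 3.31 at E15.5. Ttr carried most of the choroid plexus sum at E12.5 and E14, with means of 283 and 1081 CPM. Of the choroid plexus genes, 1 of 7 was at 0 in both P0 libraries. The step from E14 to E15.5 therefore coincides with a change in the non-neural tissue of the samples as well as in the neurons, and the part of either in the values below was not tested. In whole tissue, fewer cells of a type and less RNA per cell cannot be told apart.

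The upstream sequences of 4 of the genes are shown because Dab1, Dclk1 and Dcx were all called higher at E15.5 while Reln was not called. RefSeq (GRCm38.p6) gave start sites for 8 of the 10 genes, all but Cdk5 and Cdk5r1, with 14 starts in all. Each sequence below holds the 120 bases before a start, 5′ to 3′ on the strand of the gene, and capitals mark the motifs CANNTG (an E-box, the site class of basic helix-loop-helix factors, which reads the same on both strands) and TATAAA (searched on both strands). The 2 motifs do not overlap in them.
Reln, chr5:22344706-22344825, minus strand: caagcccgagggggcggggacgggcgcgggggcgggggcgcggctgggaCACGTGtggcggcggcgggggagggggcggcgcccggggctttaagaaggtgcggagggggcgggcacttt
Dab1, chr4:104367418-104367537, plus strand: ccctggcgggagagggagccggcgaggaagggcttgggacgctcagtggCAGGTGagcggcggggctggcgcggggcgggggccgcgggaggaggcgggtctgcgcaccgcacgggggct
Dclk1, chr3:55242244-55242363, plus strand: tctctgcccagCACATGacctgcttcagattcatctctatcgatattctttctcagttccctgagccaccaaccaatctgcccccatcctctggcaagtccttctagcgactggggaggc
Dcx, chrX:143933220-143933339, minus strand: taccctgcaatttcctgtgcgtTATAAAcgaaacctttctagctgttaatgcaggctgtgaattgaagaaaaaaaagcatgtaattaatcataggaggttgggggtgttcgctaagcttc
For Dab1, Dclk1 and Dcx the start listed first is shown, and each has another. The Reln and Dab1 stretches were rich in G and C, at 80.0% and 78.0% of the 250 bases before the start with 37 and 40 CG pairs. Dclk1 had 52.4% with 4 pairs and Dcx 41.6% with 3. The other starts had 56.4% with 10 pairs (Dab1), 46.8% with 4 (Dclk1) and 44.8% with 3 (Dcx). The E-box began 71 bases before the start in both Reln and Dab1 and 109 bases before it in Dclk1. Before the other starts it began 180 and 133 bases away in Dab1 and 111 in Dclk1, and Dcx had none. Over the 250 bases, 9 of the 14 starts held CANNTG, beside 66.2% of 32841 windows of the same length, and 3 of 14 held TATAAA, beside 12.4%. The windows of the 2 Dcx starts overlap and share 1 TATAAA site, which is counted for both. A match describes the letters only and does not show that a factor binds there.

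Between adjacent stages the 10 genes were called most often from E14 to E15.5, though Reln, Vldlr and Lrp8 changed most at later steps. A gene was called at an adjusted p under 0.05 (limma-voom, Benjamini-Hochberg over the 13484 genes kept) with a log2 fold change of at least 0.32 in either direction, and adjacent steps share the libraries of the stage between them. From E14 to E15.5, 7 of the 10 genes were called higher and 1 lower, where 16.5% of all genes were called higher and 19.6% lower. From E15.5 to E17, 3 of 10 were called higher and 0 lower, where 5.61% and 3.43% of all genes were. From E17 to P0, 2 of 10 were called lower and 0 higher, where 11.1% and 9.46% of all genes were. At an unadjusted p under 0.05, 0 of the 10 were lower at E17 and 2, Cdk5 and Dclk1, were higher at P0. Of the 13484 genes, 3459 and 4839 had such a p at these steps, in either direction. None of the 10 was called from E12.5 to E14 (0 higher and 0 lower), where 0.497% of all genes were called higher and 0.141% lower. At that step 4 of the 10 had an unadjusted p under 0.05, as did 2137 of the 13484 genes. There edgeR called 0 (0.63% of all genes) and DESeq2 called 1 (2.96% of all genes), which was Cdk5r1. Over the whole span from E12.5 to P0, 7 of 10 were called higher and 1 lower, where 30.1% and 32% of all genes were. The moderated F test over the 5 stages called 9 of 10, all but Pafah1b1, where it called 63.8% of all genes. The median log2 fold change of the 10 was 0.66 from E14 to E15.5, beside -0.0086 over all genes, and 1.26 from E12.5 to P0, beside -0.013. As the 10 were chosen with earlier results of these data known, these counts and medians are a description. The fit was also run with 1 library left out. From E15.5 to E17, leaving out an E15.5 or E17 library ended almost every call among all genes. The same held from E12.5 to E14 for any library from E12.5 to E17. A call lost in such a fit does not set a gene apart from the rest.

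**Figure D1:**
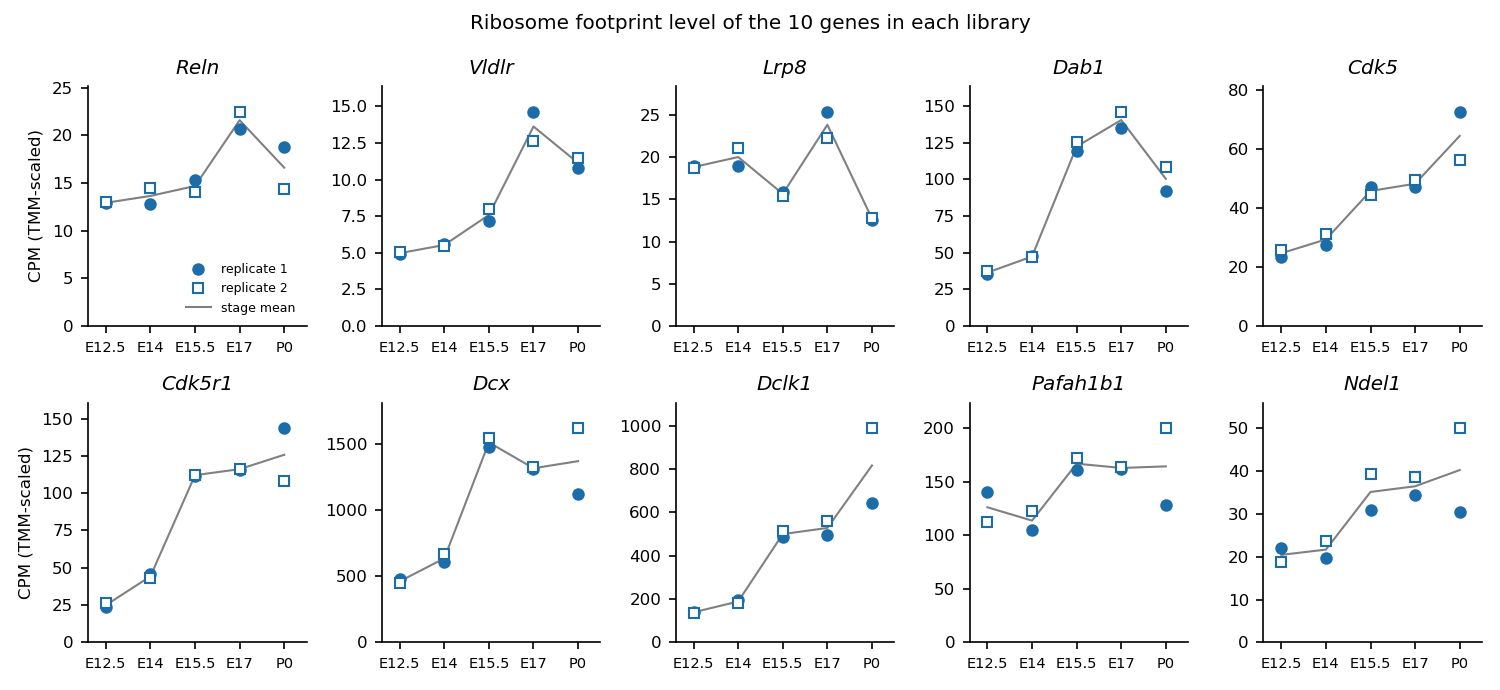
Footprint level (TMM-scaled footprint CPM, linear axes from 0) of each of the 10 genes by stage, with filled circles for replicate 1, open squares for replicate 2 and a line through the stage means. Dab1, Cdk5r1, Dcx and Dclk1 step up between E14 and E15.5, Reln and Vldlr peak at E17, and the P0 libraries lie far apart for Dcx, Dclk1, Pafah1b1 and Ndel1.

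**Figure D2:**
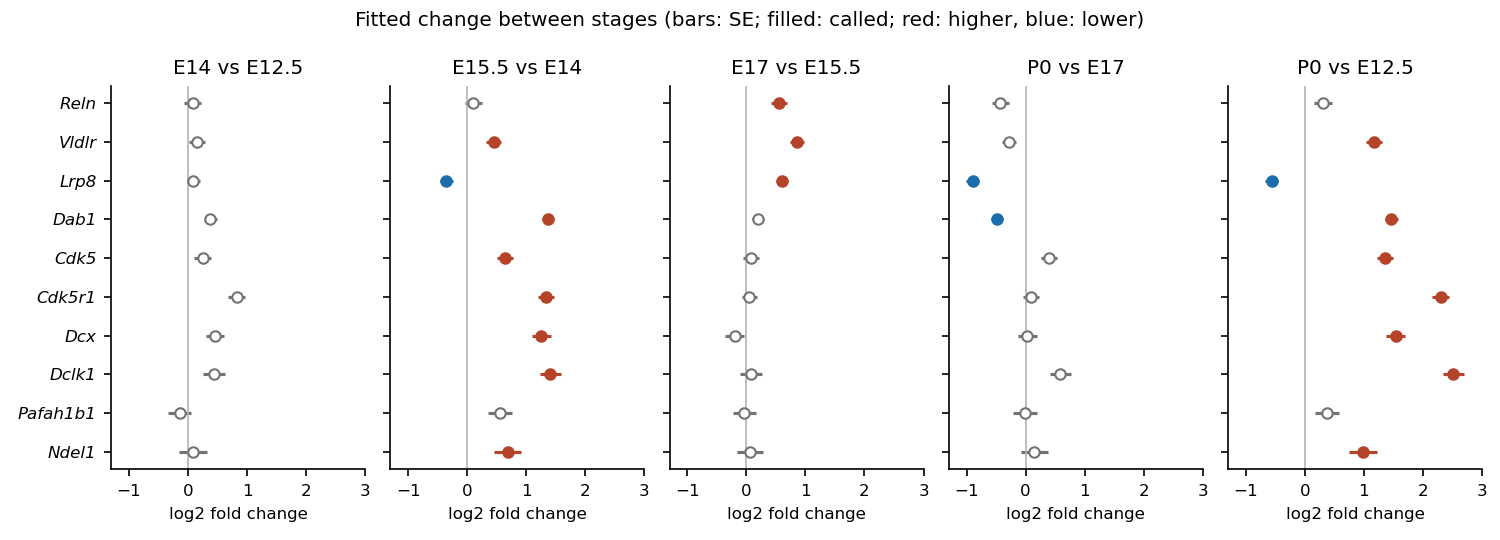
Fitted log2 fold change with its SE (bars) for the 10 genes in the 4 adjacent steps and from E12.5 to P0, with filled red points for genes called higher, filled blue for lower and open grey for not called. From E14 to E15.5, 7 points are red and 1, Lrp8, is blue.

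Reln (ENSMUSG00000042453), the secreted ligand, had 12.9 and 13.0 CPM in the E12.5 libraries, 12.8 and 14.5 in those of E14, 15.3 and 14.1 in those of E15.5, 20.7 and 22.5 in those of E17, and 18.8 and 14.4 in those of P0. Both E17 libraries lay above all others, while the first 3 stages overlapped or lay close to each other and P0 replicate 2 fell within the range of E14 and E15.5. The rise from E15.5 to E17 was 0.55 ± 0.14 on the log2 scale (SE, adjusted p = 0.0437, limma-voom). That call was lost when any one of the 8 libraries from E12.5 to E17 was left out, with adjusted p between 0.0681 and 0.242 and the log2 change between 0.49 and 0.61, and also under the replicate block (adjusted p = 0.0707). The change from E17 to P0 was -0.43 ± 0.14 (adjusted p = 0.0641) and passed only without P0 replicate 1 (adjusted p = 0.00658). From E12.5 to P0 the change was 0.31 ± 0.15 (adjusted p = 0.0970), which passed without P0 replicate 2 (adjusted p = 0.00647).

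The summed markers of the cells known to release Reelin are given beside its level. The Cajal-Retzius list (9 genes, among them Trp73, Lhx5 and Calb2) summed to 89.8 and 95.3 CPM in the E12.5 libraries, 95.9 and 109 in those of E14, 69.8 and 71.1 in those of E15.5, 67.4 and 72.0 in those of E17, and 50.6 and 54.8 in those of P0. Its highest libraries were thus at E14 and its lowest at P0, and 7 of its 9 genes were called lower and 2 higher from E12.5 to P0, with a median log2 fold change of -1.33, where 32% of all genes were called lower and 30.1% higher with a median of -0.013. Nhlh2 had the largest mean of this list at E12.5 and E14, at 34.8 and 44.3 CPM, and Calb2 had the largest at P0, at 18.6. The interneuron list (10 genes, among them Gad1, Gad2 and Lhx6) summed to 55.5 and 63.9 in the E12.5 libraries, 78.9 and 86.1 in those of E14, 215 and 221 in those of E15.5, 285 and 288 in those of E17, and 309 and 354 in those of P0. It rose through the stages, with 10 of 10 genes called higher from E12.5 to P0 and a median of 3.13, and Calb2 and Ndnf of the first list are known in interneurons as well. No gene of either list was at 0 in both libraries of a stage. The part of either cell type in the level of Reln was not tested.

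**Figure D3:**
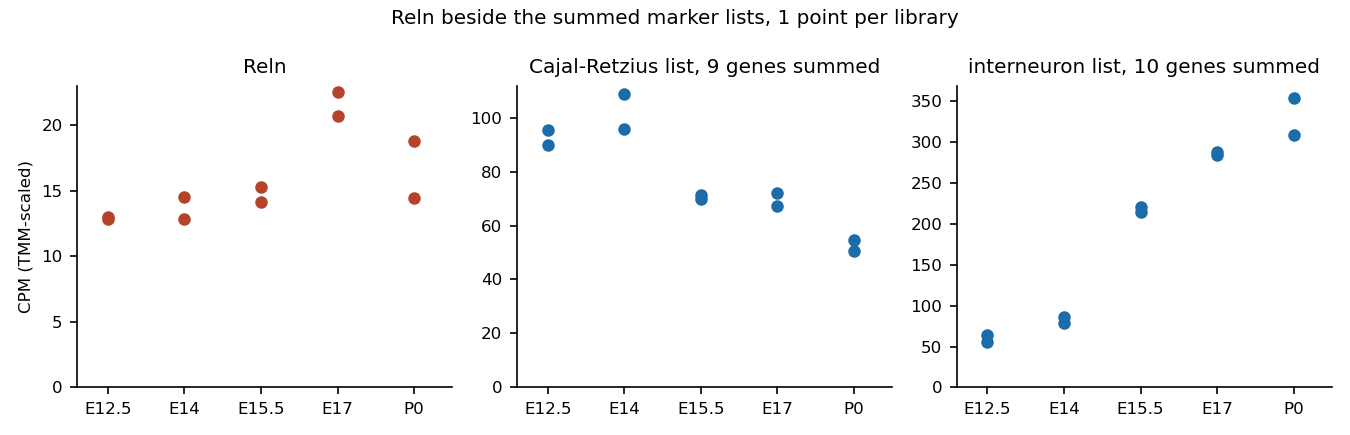
CPM (TMM-scaled, linear axes from 0) of Reln, of the summed Cajal-Retzius list (9 genes) and of the summed interneuron list (10 genes) by stage, with 1 point per library. Reln is highest in the 2 libraries at E17, at 20.7 and 22.5, whereas the first list is lowest at P0 and the second highest there.

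The 5 genes whose level ran most like that of Reln were found by Pearson correlation of log2 CPM over the 10 libraries, among the 9214 genes that averaged 100 counts or more. They were L1cam, a cell adhesion molecule of axons (r = 0.964), Plxna4, a semaphorin co-receptor (0.959), Lrp1, a lipoprotein receptor (0.959), Nus1 (0.956) and Cadm1, an adhesion molecule (0.954). L1cam rose from a mean of 27.5 at E12.5 to 65.3 at E17 and stood at 48.3 at P0, and Lrp1 at 10.9, 19.8 and 17.1 at the same stages. All 5 had their highest stage mean at E17, as Reln did. The points share library depth and scaling, and the correlations are a description of 10 libraries.

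The receptors Vldlr and Lrp8 took different courses. Vldlr (ENSMUSG00000024924) had 4.89 and 5.05 CPM in the E12.5 libraries, 5.61 and 5.45 in those of E14, 7.14 and 8.02 in those of E15.5, 14.6 and 12.6 in those of E17, and 10.8 and 11.5 in those of P0. Each stage from E14 to E17 lay above the one before without overlap, and P0 lay between E15.5 and E17. It is the gene with the fewest counts of the 10, from 89 to 482 per library. It rose by 0.45 ± 0.13 (log2, adjusted p = 0.0264, limma-voom) from E14 to E15.5 and by 0.85 ± 0.12 (adjusted p = 0.00900) from E15.5 to E17. Over the whole span it rose 2.25-fold, or 1.17 ± 0.13 on the log2 scale (adjusted p = 0.000113). Both single-step calls were lost when any one of the 4 libraries of the stages compared was left out, where adjusted p lay between 0.0620 and 0.152 at the earlier step and between 0.0739 and 0.134 at the later, and DESeq2 did not call the earlier one (adjusted p = 0.106).

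Lrp8 (ENSMUSG00000028613), which encodes ApoER2, had 19.0 and 18.7 CPM in the E12.5 libraries, 18.9 and 21.1 in those of E14, 15.9 and 15.4 in those of E15.5, 25.4 and 22.3 in those of E17, and 12.6 and 12.8 in those of P0. E17 was the highest stage and P0 the lowest, and neither overlapped any other stage. Lrp8 was the one gene of the 10 called in 3 adjacent steps, in alternating directions. It fell by 0.35 ± 0.11 (log2, adjusted p = 0.0329, limma-voom) at E15.5, rose by 0.60 ± 0.11 (adjusted p = 0.0170) at E17 and fell by 0.90 ± 0.11 (adjusted p = 0.00233) at P0. The P0 level was 1.47-fold below that at E12.5 (log2 fold change -0.56 ± 0.11, adjusted p = 0.00281). The last fall and the fall over the whole span stayed called whichever library was left out. The fall at E15.5 was lost without E12.5 replicate 1 or 2, E14 replicate 2 or E15.5 replicate 1 or 2 (adjusted p between 0.0537 and 0.180), and also under the replicate block (0.0528), by DESeq2 (0.0544) and with no filter (0.0680). The rise at E17 was lost without any one of the E15.5 and E17 libraries (0.0858 to 0.152).

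The call of the fall of Lrp8 was lost under 1 of the 3 other scalings run. Scaling to total counts in place of TMM moved the median log2 fold change of all genes to 0.29 from E14 to E15.5 and to 0.51 from E12.5 to P0. Histone genes (66 genes with symbols in Hist) held 34.0 to 38.5% of all counts at E12.5 and 6.32 to 9.83% at P0. Lrp8 then changed by -0.059 and -0.036 (adjusted p = 0.693 and 0.802, limma-voom), or by -0.34 and -0.55 relative to those medians. With total counts taken without the histone genes it changed by -0.37 and -0.58 and was called lower in both, and with DESeq2 size factors by -0.37 and -0.54, again called lower in both. Among the 10 genes, scaling to total counts with the histone genes made Reln and Pafah1b1 called from E12.5 to P0, at 0.83 and 0.91 before and 0.32 and 0.39 after the median was taken off.

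The ratio of Lrp8 to Vldlr within a library needs no scaling between libraries, and it fell across the stages. The log2 ratio of footprints was 1.95 and 1.89 in the E12.5 libraries, 1.75 and 1.95 in those of E14, 1.15 and 0.94 in those of E15.5, 0.79 and 0.82 in those of E17, and 0.23 and 0.16 in those of P0. From E14 on, no 2 stages overlapped, and at P0 the ratio was 0.303 of that at E12.5. An exact permutation test of the F statistic over the 945 distinct assignments of the 10 libraries to 5 pairs, one-sided in F, gave p = 0.00317, or 0.00635 adjusted over the 4 ratios tested. The smallest p the design allows is 0.00106. As the genes differ in length, the ratio does not say which mRNA carried more ribosomes.

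Dab1 (ENSMUSG00000028519), the adaptor that passes the signal from the receptors into the cell, had 35.6 and 37.3 CPM in the E12.5 libraries, 47.6 and 47.1 in those of E14, 119 and 126 in those of E15.5, 135 and 146 in those of E17, and 92.1 and 109 in those of P0. No 2 stages overlapped, the order of the stages was E12.5, E14, P0, E15.5, E17, and of adjacent stages E14 and E15.5 lay farthest apart. Dab1 rose by 1.37 ± 0.11 (log2, adjusted p = 0.000106, limma-voom) from E14 to E15.5, or 2.58-fold, and fell by 0.48 ± 0.10 (adjusted p = 0.0164) from E17 to P0. The fall was lost without either E17 library (adjusted p = 0.0747 and 0.101). The change from E12.5 to E14 was 0.38 ± 0.11 (adjusted p = 0.146) and was called only without either P0 library (adjusted p = 0.0279 and 0.0301). From E15.5 to E17 it was 0.20 ± 0.10 (adjusted p = 0.276), and over the whole span 1.47 ± 0.11 (adjusted p = 1.05e-05).

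Cdk5 (ENSMUSG00000028969), a kinase that is active in neurons when bound to an activator, had 23.5 and 25.7 CPM in the E12.5 libraries, 27.6 and 31.0 in those of E14, 47.1 and 44.4 in those of E15.5, 47.1 and 49.4 in those of E17, and 72.6 and 56.2 in those of P0. E15.5 and E17 overlapped, and the other stages stood apart in the order of age. It rose by 0.64 ± 0.14 (log2, adjusted p = 0.00749, limma-voom) at E15.5, a call lost without E14 replicate 1 or E15.5 replicate 1 (adjusted p = 0.0564 and 0.0597). The P0 libraries differed more from each other than those of any earlier stage did, and the change from E17 to P0 was 0.39 ± 0.13 (adjusted p = 0.0748), called without P0 replicate 2 (adjusted p = 0.00477), by DESeq2 (0.0485) and with total counts (0.0420). In the RefSeq annotation the span of Cdk5 overlaps those of the protein-coding genes Abcb8 and Asic3, and whether the counting used the strand is not stated, so some of its counts are uncertain.

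Cdk5r1 (ENSMUSG00000048895) encodes p35, the activator of Cdk5 in neurons, and had 23.5 and 26.4 CPM in the E12.5 libraries, 45.7 and 42.9 in those of E14, 112 and 112 in those of E15.5, 116 and 116 in those of E17, and 144 and 108 in those of P0. E12.5, E14 and the later stages formed 3 separate levels, and P0 spanned the range of E15.5 and E17. The rise at E15.5 was 1.34 ± 0.14 (log2, adjusted p = 0.000263, limma-voom), and that over the whole span was 2.30 ± 0.14, or 4.93-fold (adjusted p = 3.82e-06). The rise from E12.5 to E14 of 0.82 ± 0.14 was the nearest to a call of the 10 at that step (adjusted p = 0.0511). It was called by DESeq2, after scaling to total counts, with a stricter filter on low counts, with sample quality weights (adjusted p between 0.000221 and 0.0478 over these) and without either P0 library (0.00526 and 0.00570). The change from E17 to P0 was called only without P0 replicate 2 (0.34, adjusted p = 0.0279), and without P0 replicate 1 it was -0.10.

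The activator rose more than the kinase. The log2 ratio of Cdk5r1 to Cdk5 footprints was -0.0034 and 0.039 in the E12.5 libraries, 0.73 and 0.47 in those of E14, 1.24 and 1.34 in those of E15.5, 1.30 and 1.24 in those of E17, and 0.98 and 0.94 in those of P0. The ratio was 2.42-fold that of E12.5 at E15.5 and 1.92-fold at P0, and only E15.5 and E17 overlapped (exact permutation test, one-sided in F, p = 0.00212, adjusted 0.00635). Cdk5r2, the gene for the related activator p39, had a mean of 1.05 ± 0.47 CPM at E12.5 (SD, n = 2, 13 and 37 counts), 3.75 ± 0.24 (E15.5), 7.92 ± 0.47 (E17) and 25.2 ± 10.5 (P0) later. It rose by 1.31 ± 0.40 at E15.5 (log2, adjusted p = 0.0333, limma-voom), which was lost without any one of the 6 libraries from E14 to E17 (0.0520 to 0.214). Its rise from E17 to P0 was 1.53 ± 0.27 (log2, adjusted p = 0.00762, limma-voom), at a step where Cdk5r1 changed by 0.086 ± 0.13 (adjusted p = 0.673), and the difference between these 2 changes was not tested. The call for Cdk5r2 at that step was lost without E17 replicate 1 (adjusted p = 0.0723).

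Dcx (ENSMUSG00000031285), which encodes the microtubule-binding protein doublecortin of immature neurons, had 477 and 445 CPM in the E12.5 libraries, 604 and 664 in those of E14, 1475 and 1543 in those of E15.5, 1306 and 1322 in those of E17, and 1119 and 1616 in those of P0. The first 2 stages lay well below the other 3, and the P0 libraries enclosed both E15.5 and E17. It rose by 1.253 ± 0.16 (log2, 2.38-fold, adjusted p = 0.000653, limma-voom) from E14 to E15.5, and no later step was called. The change from E12.5 to E14 was 0.46 ± 0.16 (adjusted p = 0.202) and was called with sample quality weights (0.0331) or without either P0 library (0.0141 and 0.0162). The change from E15.5 to E17 was -0.20 ± 0.16 (adjusted p = 0.493) and that from E17 to P0 was 0.027 ± 0.16 (adjusted p = 0.917), the latter with its direction set by which P0 library was used (-0.20 without P0 replicate 2).

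Dclk1 (ENSMUSG00000027797), the doublecortin relative that carries a kinase domain, had 140 and 138 CPM in the E12.5 libraries, 197 and 181 in those of E14, 486 and 513 in those of E15.5, 496 and 559 in those of E17, and 644 and 988 in those of P0. It was the gene of the 10 with the widest change over the span, 2.51 ± 0.18 on the log2 scale or 5.71-fold (adjusted p = 8.43e-06, limma-voom). The step to E15.5 was 1.41 ± 0.18 (adjusted p = 0.000656), E15.5 and E17 overlapped, and both P0 libraries lay above all others. The change from E12.5 to E14 was 0.44 ± 0.18 (adjusted p = 0.277), called without either P0 library (0.0206 and 0.0225). The change from E17 to P0 was 0.59 ± 0.18 (adjusted p = 0.0512), and 6 of the other settings called it, edgeR and DESeq2 among them (adjusted p between 0.00409 and 0.0499), as did the fit without P0 replicate 1 (0.000786).

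Within the doublecortin pair, the log2 ratio of Dclk1 to Dcx footprints was -1.77 and -1.69 in the E12.5 libraries, -1.62 and -1.88 in those of E14, -1.60 and -1.59 in those of E15.5, -1.40 and -1.24 in those of E17, and -0.80 and -0.71 in those of P0. The first 2 stages overlapped, E15.5, E17 and P0 lay one above the other, and the ratio at P0 was 1.97-fold that at E12.5 (exact permutation test, one-sided in F, p = 0.00741, adjusted 0.00988). The 2 P0 libraries, which differed widely in the level of each gene, were close in this ratio. Among the 3 relatives listed beside these genes (Cdk5r2, Dclk2 and Dclk3), 2 of 3 were called higher from E14 to E15.5 and 3 of 3 from E12.5 to P0, with medians of 1.31 and 4.40. Of all genes, 16.5% and 30.1% were called higher in these comparisons, with medians of -0.0086 and -0.013.

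Pafah1b1 (ENSMUSG00000020745), the gene for LIS1, a regulator of the motor dynein, had 140 and 112 CPM in the E12.5 libraries, 105 and 123 in those of E14, 161 and 173 in those of E15.5, 162 and 164 in those of E17, and 129 and 200.0 in those of P0. E12.5 and E14 overlapped, E15.5 and E17 overlapped at a higher level, and the P0 libraries spread from the early to above the late range. It was the 1 gene of the 10 not called by the F test (adjusted p = 0.0955, limma-voom). The change from E14 to E15.5 was 0.56 ± 0.20 (adjusted p = 0.0593), and 5 other settings called it, with adjusted p between 0.0024 and 0.0411, as did the fits without P0 replicate 1 or 2 (0.00473 and 0.00495). The change from E12.5 to P0 was 0.37 ± 0.20 (adjusted p = 0.137), and without P0 replicate 1 it was called (adjusted p = 0.00266). Processed copies of this gene, Pafah1b1-ps1 and Pafah1b1-ps2, are in the reference list of names but have no row of counts, and how reads that match them were treated is not stated.

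Ndel1 (ENSMUSG00000018736), a partner of LIS1 that binds dynein, had 22.0 and 18.8 CPM in the E12.5 libraries, 19.7 and 23.6 in those of E14, 31.0 and 39.2 in those of E15.5, 34.3 and 38.5 in those of E17, and 30.4 and 50.0 in those of P0. All libraries of the first 2 stages lay below all of the later ones, and within each of these sets the stages overlapped. The rise at E15.5 was 0.69 ± 0.23 (log2, adjusted p = 0.0477, limma-voom), close to the threshold, and it was lost without any one of the 8 libraries from E12.5 to E17 (adjusted p between 0.0666 and 0.230) and by edgeR (0.0508). The rise over the whole span was 0.98 ± 0.24, or 1.98-fold (adjusted p = 0.00652).

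The ratio of Ndel1 to Pafah1b1 rose less than the other ratios changed. The log2 ratio was -2.67 and -2.57 in the E12.5 libraries, -2.41 and -2.38 in those of E14, -2.38 and -2.14 in those of E15.5, -2.24 and -2.09 in those of E17, and -2.08 and -2.00 in those of P0. E12.5 lay below all other stages, the later stages overlapped or nearly touched, and the ratio at P0 was 1.497-fold that at E12.5 (exact permutation test, one-sided in F, p = 0.0116, adjusted 0.0116). Without E12.5 replicate 1 the range of its stage means was 0.53 in place of 0.58 and the exact permutation test did not pass (p = 0.0720).

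**Figure D4:**
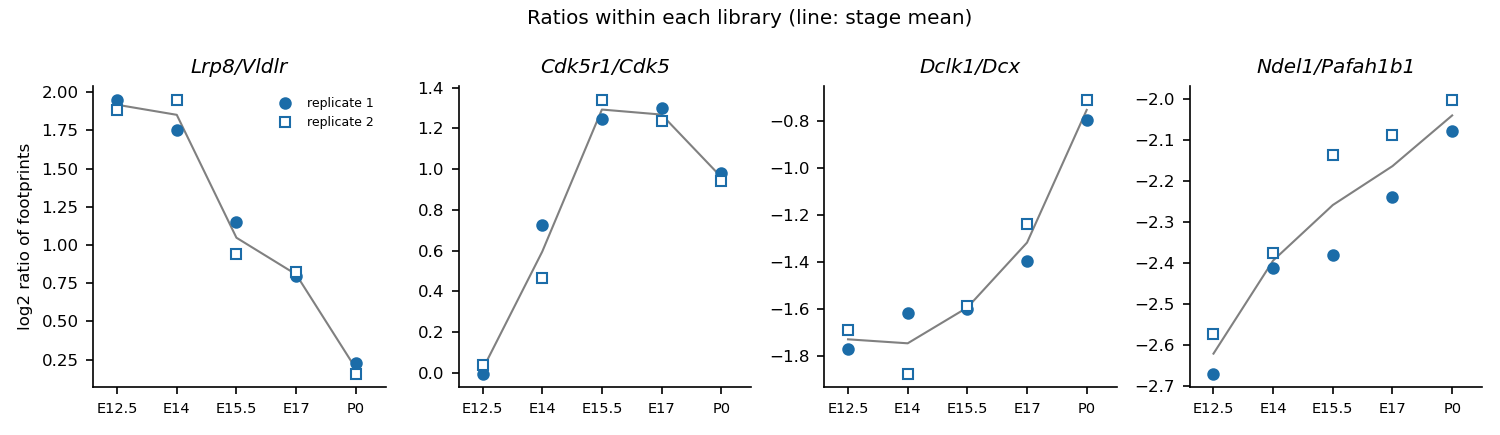
Log2 ratio of footprints of 2 genes within a library, by stage, with filled circles for replicate 1, open squares for replicate 2 and a line through the stage means. Lrp8/Vldlr falls from 1.95 and 1.89 at E12.5 to 0.23 and 0.16 at P0, while Cdk5r1/Cdk5, Dclk1/Dcx and Ndel1/Pafah1b1 rise, the first with its highest values at E15.5 and E17.

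Nde1, the paralogue of Ndel1 that acts in dividing progenitors, moved the opposite way. Its stage mean (± SD, n = 2) went from 124 ± 3.93 CPM at E12.5 over 115 ± 5.26 (E14), 48.3 ± 4.62 (E15.5) and 32.7 ± 5.45 (E17) to 11.7 ± 1.23 at P0. It fell by 1.26 ± 0.13 (log2, adjusted p = 0.000305, limma-voom) at E15.5 and fell by 3.43 ± 0.15 (adjusted p = 8.28e-07) over the whole span, where Ndel1 rose by 0.98. The fall from E15.5 to E17 of 0.56 ± 0.14 (adjusted p = 0.0417) was lost without any one of the 8 libraries from E12.5 to E17 (0.0711 to 0.240) and under the replicate block (0.0637), whereas no library left out ended the call from E17 to P0, where it fell by 1.498 ± 0.15 (adjusted p = 0.00127). The progenitor markers summed to 248 to 275 at E15.5 against 494 to 537 at E14, and their part in the fall of Nde1 was not tested.

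Among the partners of the dynein regulators (19 genes: dynein and dynactin subunits, Nde1 and others that bind LIS1), 6 were called higher and 2 lower from E14 to E15.5 (all genes 16.5% and 19.6%), and 9 higher and 4 lower from E12.5 to P0 (all genes 30.1% and 32%). The medians were 0.16 and 0.32, beside -0.0086 and -0.013 over all genes. Dync1i1, a dynein intermediate chain known from neurons, rose most. Its mean went from 10.6 ± 0.77 CPM at E12.5 to 27.0 ± 2.56 (E14), 210 ± 11.1 (E15.5), 240 ± 0.36 (E17) and 315 ± 35.5 (P0). The steps were 1.35 ± 0.13 at E14 (log2, adjusted p = 0.0164, limma-voom) and 2.96 ± 0.12 at E15.5 (adjusted p = 1.89e-05), and the change over the span was 4.90 ± 0.13. The call at E14 was lost under the replicate block (adjusted p = 0.0512, limma-voom), which called 4 of 13484 genes at that step. It was also lost without any one of the 8 libraries from E12.5 to E17, in fits that called almost no gene of the whole set. With 1 library left out, the log2 change at E14 ran from 1.26 to 1.46. Dctn1, the large dynactin subunit, rose by 0.62 ± 0.096 from E17 to P0 (adjusted p = 0.00471), a call lost without E17 replicate 1 (0.0515).

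The genes that act with Dab1 in Reelin signalling (24 genes, among them Src-family kinases, Crk adaptors, Rap1 and phosphoinositide 3-kinase components, actin and adhesion effectors) moved in both directions. From E14 to E15.5, 6 were called higher and 2 lower (all genes 16.5% and 19.6%), and from E12.5 to P0, 6 higher and 5 lower (all genes 30.1% and 32%), with medians of 0.14 and 0.053 beside -0.0086 and -0.013 over all genes. Over the span, neither share of the 24 exceeded that of all genes. Pik3r1, a regulatory subunit of phosphoinositide 3-kinase, rose by 1.40 ± 0.28 (log2, adjusted p = 0.00581, limma-voom) at E15.5 and by 2.73 ± 0.30 (adjusted p = 8.64e-05) over the span, from 7.38 ± 1.30 to 49.0 ± 21.8 CPM (SD, n = 2). Nectin3, a cell adhesion molecule, fell by 0.94 ± 0.18 at E15.5 (adjusted p = 0.00422), from 12.3 ± 0.87 to 6.42 ± 1.32. Itgb1, the beta 1 integrin subunit, fell by 1.86 ± 0.26 from E17 to P0 (adjusted p = 0.00343), and its log2 fold change over the span was -2.97 ± 0.26 (adjusted p = 2.53e-05), from 51.3 ± 5.71 to 6.04 ± 3.0. At the step to E17, where Reln, Vldlr and Lrp8 were called higher, Cdh2 (N-cadherin) rose by 0.52 ± 0.11 (adjusted p = 0.0277) and the adaptor gene Crkl fell by 0.47 ± 0.10 (adjusted p = 0.0310). Neither call is firm. That of Cdh2 was lost without either E12.5 library, and that of Crkl without any one E12.5 or E14 library or under the replicate block (adjusted p = 0.0550). Both were also lost without any one of the E15.5 and E17 libraries, in fits that called almost no gene of the whole set. With 1 library left out, the log2 change ran from 0.45 to 0.59 for Cdh2 and from -0.47 to -0.45 for Crkl.

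Among genes that process Reelin or control its receptors (5 genes tested), 0 were called higher and 2 lower from E14 to E15.5, with 0 higher at an unadjusted p under 0.05 as well, and 2 higher and 3 lower from E12.5 to P0, with medians of -0.87 and -1.22. Of all genes, 16.5% were called higher and 19.6% lower at the first of these comparisons, with a median of -0.0086. At the second, 30.1% and 32% were, with a median of -0.013. An unadjusted p under 0.05 was reached by 6199 of 13484 genes at the first, in either direction. Mesd, a chaperone of lipoprotein receptors, fell by 0.92 ± 0.14 (log2, adjusted p = 0.00155, limma-voom) at E15.5 and fell by 1.22 ± 0.14 (adjusted p = 0.000143) over the span. Adamts3, a protease that cleaves Reelin, rose by 0.61 ± 0.21 over the span (adjusted p = 0.0322), from 7.82 ± 0.95 to 12.6 ± 2.91 CPM, and was not called without E12.5 replicate 1 or 2 or P0 replicate 1 (0.0587 to 0.146).

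The other migration genes (11 genes of actin regulation and chemokine signalling, 10 of them tested, as Filip1 had too few counts) also moved in both directions. From E14 to E15.5, 1 was called higher and 4 lower (all genes 16.5% and 19.6%), and from E12.5 to P0, 3 higher and 6 lower (all genes 30.1% and 32%), with medians of -0.25 and -0.92 beside -0.0086 and -0.013 over all genes. Flna, the actin crosslinker filamin A, fell by 1.52 ± 0.12 (log2, adjusted p = 0.000105, limma-voom) at E15.5 and fell by 3.58 ± 0.14 (adjusted p = 5.8e-07) over the span, from 57.6 ± 1.61 to 4.83 ± 0.086 CPM. Rnd2, a small GTPase of newborn migrating neurons, had stage means of 51.5, 69.1, 24.4, 14.5 and 6.12 CPM from E12.5 to P0. The largest fall in these means was from E14 to E15.5. Rnd2 fell by 0.76 ± 0.18 at E17 (adjusted p = 0.0389) and by 1.33 ± 0.21 at P0 (adjusted p = 0.00497). The first call was lost without any one of the 6 libraries from E14 to E17 or under the replicate block (0.0597). With 1 library left out, that log2 change ran from -0.91 to -0.60. The second call was lost with sample quality weights (adjusted p = 0.0897, limma-voom). It was also lost when only those 2 stages were fitted (0.0891), a fit that called 0 of 12995 genes. Srgap2, which regulates Rac and membrane protrusion, rose by 0.91 ± 0.16 at E15.5 (adjusted p = 0.00338) and by 1.45 ± 0.17 over the span (adjusted p = 0.000118). Flna is also expressed in vessels and meninges, whose marker sums fell at the same step, and their part in its fall was not tested.

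**Figure D5:**
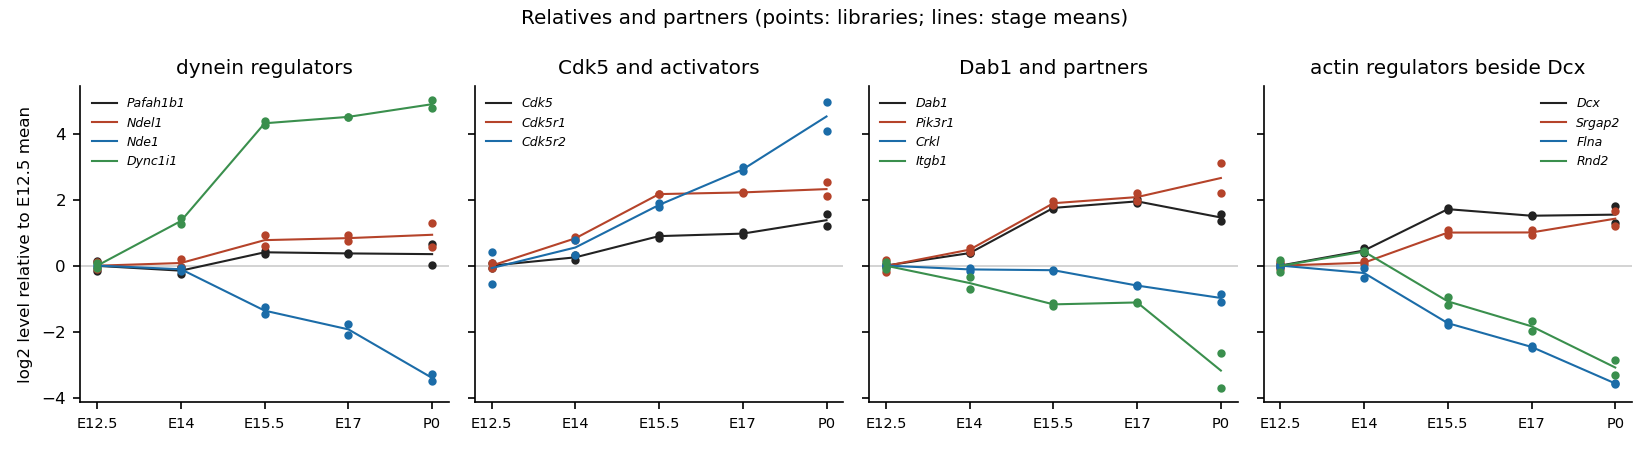
Log2 footprint level relative to the gene's own E12.5 mean, by stage, with points for libraries and lines for stage means, for the dynein regulators with Nde1 and Dync1i1, Cdk5 with its activators, Dab1 with 3 partners, and Dcx with 3 actin regulators. Nde1 falls while Ndel1 rises, Dync1i1 and Cdk5r2 rise over 4 log2 units, and Itgb1, Flna and Rnd2 fall by about 3 or more.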

How the data were processed

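Mouse neocortex footprints were sequenced in 10 libraries, 2 per stage. The authors deposited whole-number footprint counts per gene. Per the study's methods, reads were trimmed, duplicates collapsed, structural RNAs removed and the rest aligned with STAR (version 2.7.0 per the submitters' processing notes). Reads with several matches were kept in the alignment, and isoform estimates (DeepShape-prime) were made into gene-level counts (tximport). Whether the deposited whole numbers come from those estimates, and how reads shared between genes entered them, is not stated. Library totals were 7544404 to 36129988 counts. The table was analysed in R 4.3.3. Of 22373 genes, 13484 reached 32 footprints in the sum of a stage and were kept, scaled by TMM (edgeR 4.0.16) and fitted with limma-voom (limma 3.58.1), the study's test, with 1 coefficient per stage. Calls needed a Benjamini-Hochberg adjusted p under 0.05 and a log2 fold change of at least 0.32 in either direction. Levels (CPM) were not divided by gene length, so levels of different genes are not compared. Ratios within a library were formed with a prior count of 0.5. Labels and methods name separate pools as replicates.

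The 10 genes, the pathway lists and the 9 cell type lists were chosen with earlier results of these data known. One listed gene is not reported here. The genes named are the 10, the 5 most like Reln and, in each pathway list and comparison, the called gene that rose most and the one that fell most among genes averaging 100 counts or more. The fit was tested on simulated counts. Alternatives were edgeR, DESeq2 1.42.0, other scalings and filters, sample quality weights, a replicate block, fits of 2 stages only, ratios with no prior count and leaving out each library.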

Additional observations from a re-analysis of the deposited data

How the results depend on the processing

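The 8 genes called from E12.5 to P0 and the 9 called by the F test stayed within 1.5 times those counts under every alternative run, whereas the counts at single steps moved. Of the calls from E14 to E15.5, those of Dab1, Cdk5r1, Dcx and Dclk1 held under every alternative run. From E12.5 to E14 the count of 0 became 1 with DESeq2, total counts or a stricter filter on low counts, 2 with sample quality weights, and ranged from 0 to 4 with 1 library left out, 4 being reached without P0 replicate 1 or 2. From E14 to E15.5 fewer than 8 were called without any one library of these 2 stages, as were fewer of all genes. Without either P0 library more of both were called. From E15.5 to E17 the 3 calls were lost without any one library of these 2 stages, in fits that called almost no gene of the whole set. From E17 to P0 the 2 calls became 4 with DESeq2 or total counts, 1 when libraries were weighted by quality and 0 when only those 2 stages were fitted, and ranged from 1 to 4 (1 without either E17 library, 4 without either P0 library). A fit that leaves a stage with 1 library takes its spread from the other stages. The ratio range of Ndel1 to Pafah1b1 ran from 0.53 to 0.63 with 1 library left out.

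Changes of direction were all in values that were not called. Pafah1b1 from E17 to P0 (-0.0054) became 0.017 with edgeR, 0.050 with DESeq2, 0.11 with total counts, 0.032 with DESeq2 size factors, 0.030 without histone genes and 0.022 with the stricter filter, and ran from -0.31 to 0.30 with 1 library left out. Pafah1b1 from E15.5 to E17 became 0.028 with total counts, and Dcx from E17 to P0 became -0.065 with quality weights. With 1 library left out, the log2 change from E12.5 to E14 ran from -0.011 to 0.16 for Reln, -0.30 to 0.017 for Pafah1b1 and -0.044 to 0.22 for Ndel1, that from E15.5 to E17 from -0.0071 to 0.16 for Dclk1, -0.083 to 0.0082 for Pafah1b1 and -0.11 to 0.22 for Ndel1, and that from E17 to P0 from -0.10 to 0.34 for Cdk5r1, -0.20 to 0.30 for Dcx and -0.22 to 0.46 for Ndel1.

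The replicate block changed the call of Lrp8 at E15.5 (-0.35, adjusted p = 0.0528) and of Reln at E17 (0.55, adjusted p = 0.0707, limma-voom) among the 10 genes. Whether libraries with the same replicate number were handled together is not stated. The correlation of same-numbered deviations ran from -0.63 to 0.43 over 10 pairs of stages (4559 genes) and was over 0.1 in 5 of them. It was negative in every pair with E12.5 (-0.63 to -0.11). Such mixed signs do not settle whether the numbers pair the libraries. The share of called genes that were higher moved from 45.6% to 72.7% from E14 to E15.5, from 62.1% to 71.0% from E15.5 to E17, from 46.1% to 63.3% from E17 to P0, from 77.9% to 90.9% from E12.5 to E14 and from 48.5% to 72.0% from E12.5 to P0 with total counts. With total counts taken without the histone genes these shares were 44.6%, 55.3%, 48.5%, 79.2% and 47.4% in the same order. Vldlr, at 89 to 482 counts per library, had the fewest counts of the 10. The cause of the other changes was not tested.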
